A study of Mus musculus with 4 samples.

Results

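The genes described here were 42 genes of DNA replication and the cell cycle, out of 36163 gene names on the array. They were chosen by name, as every probe whose gene name in the scanner files was one of the list. The rule used no measured value, but the list was drawn up with earlier results of these data known. The list held 11 genes of replication licensing, 11 of the replication fork, 2 E2F factors, 8 cyclins, 4 inhibitors of cyclin-dependent kinases (CDK inhibitors) and 6 mitotic genes. Together they had 58 probes, of which 57 were usable: 29 genes had 1 probe, 10 had 2 and 3 had 3. RNA came from E14Tg2A, an established mouse embryonic stem (ES) cell line of strain 129/Ola, and was read on 4 single-colour Agilent arrays. The ES array held control cells at 0 days in vitro, grown on gelatin with serum and LIF. The ELA array held control epiblast-like aggregates, the same cells after 2 days as floating aggregates in chemically defined minimal medium, a model of the primed epiblast. The AZA array held aggregates formed with 50 nM 5-azacytidine, an inhibitor of DNA methyltransferases. The CHQ array held aggregates formed with 100 µM 5-carboxy-8-hydroxyquinoline, an inhibitor of lysine demethylases. All 4 groups were thus 1 cell line, and each was 1 array of RNA pooled from 3 sets of treatments.

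Before a cell can copy its DNA, the origin recognition complex, Cdc6 and Cdt1 load the Mcm2 to Mcm7 helicase onto origins, a step called licensing, and geminin blocks it afterwards. Cdc45 and the GINS complex then switch the helicase on, polymerases copy the strands around the Pcna clamp, and chromatin assembly factor 1 packs the new DNA. Cyclin and CDK pairs drive the steps after licensing, partly by freeing E2F factors from retinoblastoma proteins, and CDK inhibitors hold the kinases back. Mouse ES cells are known for short gap phases, high cyclin E and little of the Ink4 inhibitors encoded by Cdkn2a and Cdkn2b.

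The promoters of these genes are shown first, because licensing and mitotic genes are known for promoter elements that they share. RefSeq windows of 300 bases, 250 before and 50 after a gene's start (build GRCm38.p6), were found for 32 of the 42 genes, in 37 windows. They were searched on both strands for 8-base E2F sites (TTTCCCGC, TTTGGCGC, TTTCGCGC or TTTGCCGC), for the CCAAT box (CCAAT) and for the cell cycle homology region of mitotic promoters (CHR, TTTGAA). An E2F form stood in 11 of 37 windows (29.7%), against 2.26% of all 32851 windows in the table. It was found in 7 of the 9 licensing genes that had a window (Cdc6, Cdt1, Mcm3, Mcm5, Mcm6, Mcm7 and Orc1), in Pola1, E2f2, Cdk1 and Cdkn2a, and in none of 5 cyclin windows. The CCAAT letters stood in 27 of 37 windows (73.0%), against 37.4% of all windows, and in the windows of all 5 mitotic genes that had one. The CHR letters stood in 9 of 37 windows (24.3%), against 17.9% of all, and in 4 of the 5 mitotic windows (Aurka, Cdc20, Cdk1 and Plk1). Each E2F form searched holds a CpG dinucleotide, and the windows of the list were richer in CpG (median 24, against 7 in all windows). The shares above were not matched for CpG content. A match is a run of letters and not a measured binding site.

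The next sequences are the 200 bases just before the start of 2 licensing and 2 mitotic genes, written 5′ to 3′ on the gene's strand, with every match in capitals. They were chosen as examples with several matches within 200 bases. In Mcm5 (chr8:75109309-75109508, plus strand) and Mcm6 (chr1:128359706-128359905, minus strand) 2 E2F forms on opposite strands overlap in a single run of capitals. Cdk1 (chr10:69352913-69353112, minus strand) holds all 3 kinds of match, and Cdc20 (chr4:118437344-118437543, minus strand) a CHR between CCAAT boxes.
Mcm5: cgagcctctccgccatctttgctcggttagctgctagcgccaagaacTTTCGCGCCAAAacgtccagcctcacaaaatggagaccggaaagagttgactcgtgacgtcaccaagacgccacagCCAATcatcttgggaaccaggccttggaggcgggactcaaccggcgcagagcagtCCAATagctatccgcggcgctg
Mcm6: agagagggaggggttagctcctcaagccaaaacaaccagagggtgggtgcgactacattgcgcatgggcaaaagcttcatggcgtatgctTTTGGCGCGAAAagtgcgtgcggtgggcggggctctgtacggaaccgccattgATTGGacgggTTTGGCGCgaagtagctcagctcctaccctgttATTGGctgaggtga
Cdk1: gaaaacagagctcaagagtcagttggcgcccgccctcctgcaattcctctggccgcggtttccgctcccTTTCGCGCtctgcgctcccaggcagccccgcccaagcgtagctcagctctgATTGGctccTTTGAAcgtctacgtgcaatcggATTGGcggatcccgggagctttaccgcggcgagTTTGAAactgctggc
Cdc20: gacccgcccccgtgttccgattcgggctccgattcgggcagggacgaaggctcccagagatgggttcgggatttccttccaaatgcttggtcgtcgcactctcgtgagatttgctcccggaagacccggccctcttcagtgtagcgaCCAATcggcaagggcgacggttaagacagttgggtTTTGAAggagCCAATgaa

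The second set is for genes whose signal differed most among the arrays, with the capitals as before. Cdkn2a has 2 starts: the upstream start (chr4:89294620-89294819, minus strand) makes the Arf transcript and the downstream start (chr4:89282193-89282392, minus strand) the p16Ink4a transcript. The upstream stretch holds 30 CpG dinucleotides and an E2F form, the downstream stretch 4 CpG and no match. Cdkn2b (chr4:89311033-89311232, minus strand) holds 9 CpG and Ccne1 (chr7:38107491-38107690, minus strand) holds 28 with no match. Over whole windows the genes of the list had a median of 24 CpG, against 7 in all windows.
Cdkn2a upstream start: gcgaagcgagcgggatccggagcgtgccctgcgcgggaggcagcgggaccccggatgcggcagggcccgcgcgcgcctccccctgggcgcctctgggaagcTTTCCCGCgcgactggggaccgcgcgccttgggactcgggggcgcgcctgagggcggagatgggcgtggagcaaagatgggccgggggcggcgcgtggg
Cdkn2a downstream start: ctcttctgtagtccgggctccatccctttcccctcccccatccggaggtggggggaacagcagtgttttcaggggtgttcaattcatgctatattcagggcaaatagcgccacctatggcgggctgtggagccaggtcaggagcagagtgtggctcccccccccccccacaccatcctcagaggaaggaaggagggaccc
Cdkn2b: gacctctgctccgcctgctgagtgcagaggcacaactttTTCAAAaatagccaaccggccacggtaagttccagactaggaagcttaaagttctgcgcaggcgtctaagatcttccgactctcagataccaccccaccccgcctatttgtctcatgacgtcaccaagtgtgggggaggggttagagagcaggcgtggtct
Ccne1: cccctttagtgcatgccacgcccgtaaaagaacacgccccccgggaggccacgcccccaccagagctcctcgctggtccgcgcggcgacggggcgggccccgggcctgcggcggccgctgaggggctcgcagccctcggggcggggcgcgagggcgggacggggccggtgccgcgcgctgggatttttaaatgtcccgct

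Values are log2 intensities after background correction and quantile normalisation of the 4 arrays together, and a gene is given by the probe with the strongest mean signal. Because probes differ in how well they hybridise, a level is compared between arrays and not between genes. Calls of higher or lower needed a log2 difference of 1 or more (2-fold), a mean level of 7.5 or more over the arrays compared, and a signal that Feature Extraction marked as well above background on either of them. With 1 array per group there is no replicate error and no p-value. Spots of the same probe on 1 array varied by a log2 SD of 0.15, which is technical error only. ES and ELA lay on slide 1, AZA and CHQ on slide 2, so a treatment and its slide cannot be told apart in any comparison of AZA or CHQ with ELA or ES. Slide 2 had a lower local background (medians of 14 and 13 intensity units) than the ES and ELA arrays (59 and 77), and more gene spots well above background (69.1% and 69.2%, against 60.6% and 55.1%). Markers of the naive and the primed state set the control arrays apart, with Zfp42 at 15.80 on ES and 11.99 on ELA and Fgf5 at 11.61 and 14.47. On the AZA array Zfp42 was 15.72 and Fgf5 11.94, and on the CHQ array 15.04 and 13.33. Other markers differed in their pattern. Nanog fell from 15.03 on ES to 12.53 on ELA and read 15.39 on AZA but 12.54 on CHQ, while its second probe went another way, at 9.44, 9.68, 8.13 and 8.66. Pou3f1, at 14.36 on ES and 15.19 on ELA, read 13.64 on AZA and 15.48 on CHQ, and Otx2, at 15.27 and 15.85, read 16.17 and 15.54. Summed intensities over the 5 ES cell and epiblast markers were 164151 on ES, 43820 on ELA, 192574 on AZA and 78816 on CHQ. Over the 3 primed markers they were 63790, 118986, 90660 and 103613, and over 4 neural markers 13351, 22404, 5641 and 6305. Over 6 fibroblast markers they were 5458, 13907, 8595 and 3562, and over 3 mesoderm markers 304, 256, 437 and 436. Most of the fibroblast sum was Thy1, at 12.08, 13.58, 12.78 and 11.27. From ES to ELA Col1a1 fell (8.61 to 7.71), while Col1a2 (8.73 to 9.56) and Dcn (6.54 to 8.78) rose. Pdgfrb changed little (7.16 to 7.40), and Lum was not well above background on any array. Of 5 primitive endoderm markers, 3 were well above background on ES, 2 on ELA, 5 on AZA and 4 on CHQ, with summed intensities of 602, 846, 911 and 2169. The part that a change in cell makeup plays in the values below was not tested. In bulk RNA, fewer cells in a phase or of a type and less RNA per cell cannot be told apart.

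On all 4 arrays 40 of the 42 genes were well above background, the exceptions being Ccne2 and Cdkn2c. The highest and the lowest array differed by less than 1 log2 unit for 32 of the 42 genes (76.2%), and the median range over the arrays was 0.68. Over the 19108 genes of the array that reached the level rule, 58% stayed within 1 unit and the median range was 0.86. Strong probes varied less in general. Among probes with a mean of 14 to 16, 15 of 16 genes of the list and 74.1% of 1885 genes stayed within 1 unit, and above 16 all 6 and 90.9% of 1138 did. Between 12 and 14 it was 7 of 10 and 63.6%, and from 10 to 12 it was 1 of 4 and 50.6%. Since 22 of the 40 genes that reached the level rule had means above 14, the share of 76.2% is not read against 58%.

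**Figure D1:**
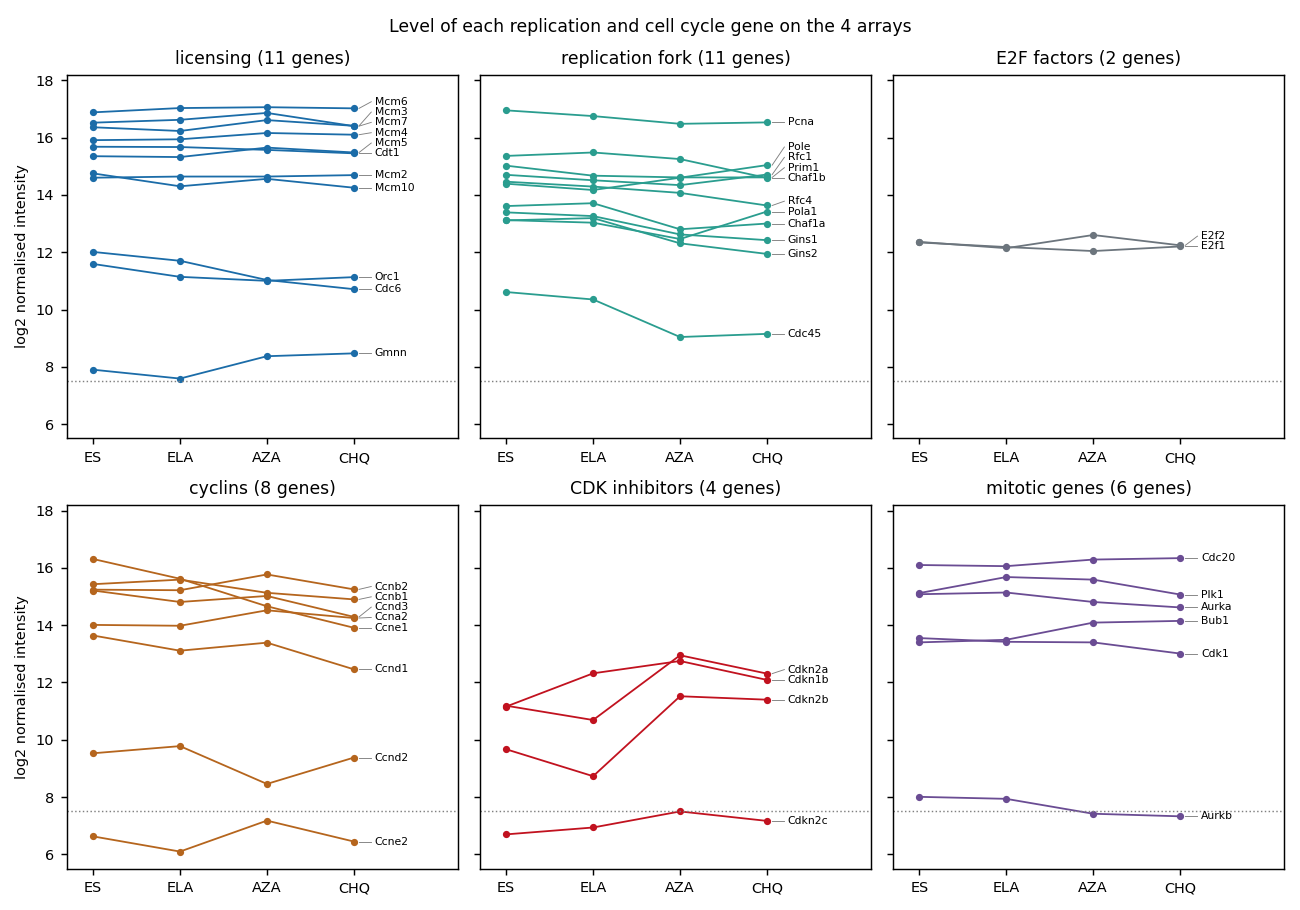
Log2 normalised intensity (vertical axis) of each of the 42 genes on the ES, ELA, AZA and CHQ arrays (horizontal axis), in 1 panel per role; each point is 1 array, the lines only join a gene's points and the dotted line is the level rule of 7.5. Mcm2 and Mcm6 run nearly flat, Cdc6, Cdc45 and Gins2 drop on the treated arrays, Ccne1 steps down from 16.31 to 13.91, and Cdkn2a and Cdkn2b are highest on AZA and CHQ.

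Licensing genes were the steadiest of the larger groups, with a median range of 0.39. Mcm2, a subunit of the helicase, read 14.60 on ES, 14.64 on ELA, 14.64 on AZA and 14.69 on CHQ. Its range of 0.08 was the smallest of the 42 genes. Mcm6, the licensing probe with the strongest signal, read 16.88, 17.03, 17.06 and 17.02 in the same order. Among Mcm2 to Mcm7 the widest range was that of Mcm7, 0.46, with 16.86 on AZA and 16.40 on CHQ. Mcm10, which acts when the helicase is switched on, had a range of 0.51, Cdt1 0.23 and Orc1 0.58. The exception was Cdc6, the loader of the helicase, at 12.01 on ES, 11.70 on ELA, 11.03 on AZA and 10.71 on CHQ. The order of its arrays was the same as that of Ccne1, with ES highest and CHQ lowest. Its difference of CHQ from ES was called (-1.31), while that from ELA (-0.99) lay just inside the threshold. A second Cdc6 probe read 10.02, 10.01, 8.85 and 8.99, with differences from ELA of -1.17 (AZA) and -1.03 (CHQ), both past the threshold.

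Geminin, the licensing inhibitor encoded by Gmnn, was not measured well. Its RefSeq probe read 13.24 on ES, 12.59 on AZA and 11.95 on CHQ, and its only spot on ELA carried an outlier flag and was left out. In the deposited value table, which keeps that spot, the probe reads 13.04 on ES, 15.90 on ELA, 12.36 on AZA and 11.71 on CHQ. The other probe under this name lies 10 kb away on the opposite strand and read 7.90, 7.59, 8.37 and 8.47. The plots, medians and counts use this other probe under the name Gmnn, and its differences are not read as those of geminin.

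Of the 11 replication fork genes none was called between ES and ELA, 1 (Cdc45) was called lower with AZA than on ELA, and 2 (Cdc45 and Gins2) were called lower with CHQ. Over all genes of the array 10.0% were called in either direction between ES and ELA. Against ELA, 11.4% were called lower with AZA and 11.9% with CHQ. The count of fork genes depended on the processing. With CHQ, 4 were called lower as means over probes (Rfc4 and Chaf1b added), where 24.8% of all genes were called in either direction. Under spike-in scaling 6 were (Pcna, Rfc4, Gins1 and Chaf1b added), where 33.5% of all genes were called. With AZA, Chaf1a was added under 75th percentile scaling (28.6% of all genes) and spike-in scaling (27.6%). Between ES and ELA, Prim1 was called lower under spike-in scaling (20.8% of all genes). Cdc45, the helicase cofactor, read 10.61 on ES, 10.35 on ELA, 9.04 on AZA and 9.15 on CHQ. Both treated arrays were below both control arrays, and Cdc45 was called lower than ELA with AZA (-1.31, 2.47-fold) and with CHQ (-1.20, 2.29-fold). Gins2, a subunit of the GINS complex that binds beside Cdc45, read 13.11, 13.19, 12.31 and 11.94. It was called lower with CHQ (-1.25, 2.38-fold) and differed by -0.88 with AZA. Gins1, its partner subunit, was not called against ELA, at 13.39, 13.26, 12.62 and 12.42. The other GINS subunits, outside the list, were not called in these comparisons. Gins3 read 15.43, 15.34, 15.18 and 14.79, and Gins4 13.84, 13.68, 13.70 and 13.36, with AZA level with ELA.

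Pcna, the sliding clamp, was the fork probe with the strongest signal and read 16.95 on ES, 16.75 on ELA, 16.48 on AZA and 16.53 on CHQ. Prim1, the primase, had a range of 0.41 and Rfc1, the large clamp loader subunit, 0.38. The chromatin assembly factor subunits Chaf1a and Chaf1b differed from ELA by -0.90 and -0.23 with AZA and by -0.71 and -0.89 with CHQ. Polymerase probes went different ways. Pola1, the catalytic subunit of polymerase alpha, read 13.12, 13.03, 12.46 and 13.42. Pole, the catalytic subunit of polymerase epsilon, was 0.87 above ELA with CHQ at its main probe and 1.40 below it at a second probe 46221 bases upstream. For Pole, therefore, no direction can be given. Over the 11 fork genes the difference from ELA was below 0 for 10 with AZA (median -0.27) and for 8 with CHQ (median -0.66). Pole, by its main probe, is counted above 0 in both. Over all genes that could be called, the medians were -0.07 and -0.09, and 45.7% of genes were above 0 with either treatment. Under the 7 other ways of computing the values, the medians of the fork genes ran from -0.67 to -0.25 with AZA. With CHQ they ran from -1.03 to -0.51. Relative to the median of all genes, and with the main values included, they ran from -0.49 to -0.19 (AZA) and from -0.73 to -0.56 (CHQ).

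The E2F factors, which switch on many genes of the S phase, differed little in the main values. E2f1 read 12.34 on ES, 12.18 on ELA, 12.04 on AZA and 12.20 on CHQ. E2f2 read 12.36, 12.14, 12.60 and 12.24. No difference of either gene in the 4 comparisons was larger than 0.47 there. Under spike-in scaling ELA differed from ES by -0.82 (E2f1) and -0.90 (E2f2), where the median of all genes was -0.60.

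Cyclins were more mixed, with a median range of 1.00 over the arrays. Ccne1, the cyclin E that partners Cdk2 at the start of the S phase, read 16.31 on ES, 15.62 on ELA, 14.66 on AZA and 13.91 on CHQ. It was called lower with CHQ than with ELA (-1.71, 3.28-fold), and differed by -0.96 with AZA and by -0.69 between ELA and ES. From ES the difference was -1.65 with AZA (3.14-fold) and -2.40 with CHQ (5.30-fold), the widest range of any cyclin. A second Ccne1 probe had the same order of arrays, at 12.63, 11.71, 9.58 and 9.16, and larger differences from ELA, -2.13 with AZA and -2.55 with CHQ. Ccne2, the other cyclin E and the weakest cyclin probe, read 6.63 on ES, 6.1 on ELA, 7.18 on AZA and 6.45 on CHQ. It was well above background only on AZA and lay below the level rule in every comparison, so no fold is given for it.

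Of the D cyclins, which answer growth signals through Cdk4 and Cdk6, Ccnd2 read 9.53 on ES, 9.78 on ELA, 8.46 on AZA and 9.38 on CHQ. Only the AZA array stood apart, and Ccnd2 was called lower there than on ELA (-1.33, 2.51-fold). Ccnd1 had its lowest value on CHQ instead, at 13.64, 13.11, 13.39 and 12.46, and was called lower with CHQ than on ES (-1.18). Ccnd3 also was lowest on CHQ (14.29) and had 15.21, 14.81 and 15.02 on the others. The mitotic cyclins moved less. Ccnb2, the cyclin probe with the strongest mean signal over the arrays, read 15.24, 15.22, 15.77 and 15.25. Ccna2 had a range of 0.54 and Ccnb1 of 0.68. Between the treated arrays, 7 of the 8 cyclins were lower with CHQ than with AZA (median -0.63, beside -0.02 over all genes), Ccnd2 being the exception (+0.92). None of these differences reached the threshold.

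CDK inhibitors varied most, with a median range of 1.92. Cdkn2b, which encodes p15Ink4b, an inhibitor of Cdk4 and Cdk6, read 9.67 on ES, 8.73 on ELA, 11.52 on AZA and 11.40 on CHQ. Both treated arrays were above both control arrays, and Cdkn2b was called higher than ELA with AZA (+2.79, 6.91-fold) and with CHQ (+2.67, 6.35-fold). These were the largest differences from ELA of any gene of the list. Cdkn2a, its neighbour on chromosome 4, encodes p16Ink4a and, in another reading frame, Arf, an activator of p53. It read 11.19, 10.69, 12.95 and 12.31, and was called higher than ELA with AZA (+2.26, 4.79-fold) and with CHQ (+1.62, 3.07-fold). Second probes gave the same order of control below treated arrays, at 7.42, 7.15, 8.77 and 8.99 for Cdkn2b and at 7.06, 7.03, 8.63 and 8.19 for Cdkn2a. Both Cdkn2a probes lie at chr4:88920405-88920602 (build mm9). They could not be placed in exons, so their values are not assigned to Arf or to p16Ink4a.

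Cdkn1b, which encodes p27Kip1, an inhibitor of cyclin E with Cdk2, was the only gene of the list called between ELA and ES in the main values. It read 11.16 on ES, 12.32 on ELA, 12.75 on AZA and 12.09 on CHQ, so that ES was the low array and the 3 aggregate arrays lay within 0.66 of each other. The difference of ELA from ES was +1.16 (2.23-fold). It was not called under spike-in scaling (+0.54) or as the mean over its probes (+0.85). A second, dim Cdkn1b probe read 7.14, 7.69, 7.17 and 7.19, with +0.54 for ELA over ES and with AZA and CHQ near the ES value. Cdkn2c, which encodes p18Ink4c, stayed near background, at 6.70, 6.94, 7.5 and 7.17.

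**Figure D2:**
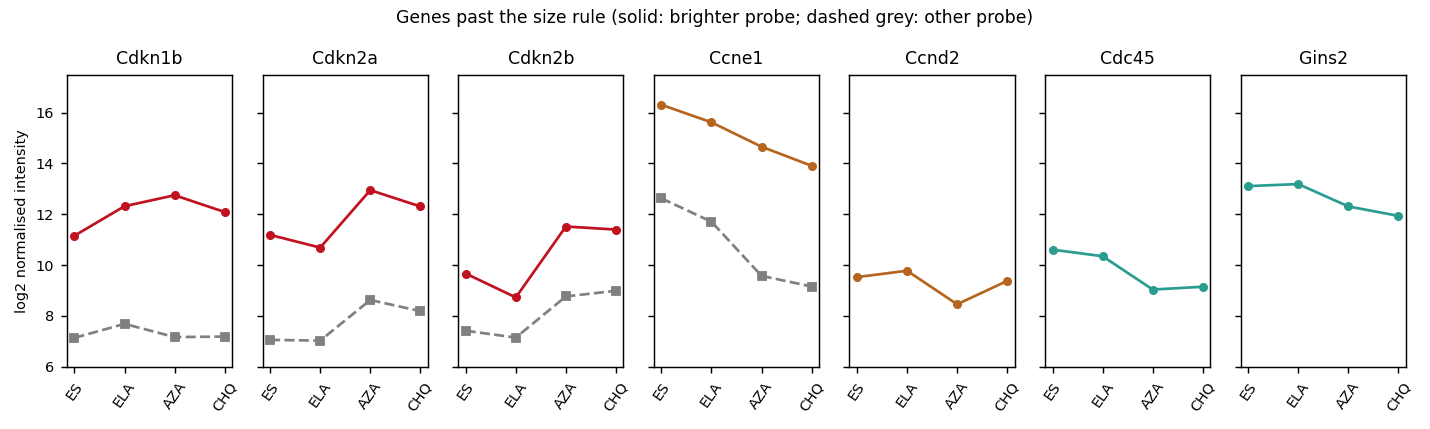
Log2 normalised intensity (vertical axis) on the 4 arrays (horizontal axis) of the 7 genes called against ELA or between ELA and ES; solid lines join the values of the main probe and dashed grey lines those of a second probe where there is one. Both probes of Cdkn2a and of Cdkn2b are higher on AZA and CHQ than on ES and ELA, and both Ccne1 probes are lower.

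Mitotic genes had a median range of 0.58 and no call in any of the 4 comparisons at their main probes, beside 10.0% (ELA against ES), 25.6% (AZA against ELA), 26.6% (CHQ against ELA) and 10.3% (CHQ against AZA) of all genes. With CHQ against ELA, Plk1 was called lower under 75th percentile scaling (-1.30), and Plk1 and Aurka were called lower under spike-in scaling, where 33.5% of all genes were called. Cdc20, the activator of the anaphase-promoting complex, had the strongest signal and read 16.10 on ES, 16.06 on ELA, 16.29 on AZA and 16.34 on CHQ. Aurkb, the kinase of the chromosomal passenger complex, had the weakest and read 8.01, 7.94, 7.42 and 7.33. Bub1, a kinase of the spindle checkpoint measured by 10 spots per array, was higher on the treated arrays (14.09 and 14.15) than on the controls (13.40 and 13.49), short of the threshold. Cdk1, the mitotic kinase, read 13.55, 13.42, 13.40 and 13.01. Its other probes varied more, at 9.45, 9.34, 8.49 and 8.16 (called lower with CHQ than on ELA, -1.18) and at 8.43, 7.87, 7.37 and 7.03. Plk1, a kinase of mitotic entry, was highest on ELA (15.68) and lowest on CHQ (15.07). Aurka, the centrosomal kinase, had a range of 0.52. The 4 mitotic genes with CHR letters in their windows included Cdc20, on which CHQ was the highest array, and Plk1, Aurka and Cdk1, on which it was the lowest.

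Counted over the list, the transition from ES to ELA brought 1 call among 40 genes that could be called (2.5%), while 10.0% of 18896 genes on the array were called, 4.46% higher and 5.59% lower. Under spike-in scaling 8 genes of the list and 20.8% of all genes were called. Strong probes varied less in general, and the shares given here were not matched for signal level. A lower share in the list is thus not read as a trait of its genes. The median difference was -0.11 over the list and -0.02 over all. With AZA, 4 of 40 differed from ELA (10%, 2 higher and 2 lower), beside 25.6% of 19106 (14.2% higher and 11.4% lower). The calls were Cdkn2a and Cdkn2b, higher, and Ccnd2 and Cdc45, lower. With CHQ, 5 of 40 did (12.5%, 2 higher and 3 lower), beside 26.6% of 19113 (14.8% higher and 11.9% lower), and under spike-in scaling 14 genes of the list were called beside 33.5% of all. The 5 were Cdkn2a and Cdkn2b, higher, and Ccne1, Gins2 and Cdc45, lower. The medians were -0.01 and -0.06, beside -0.07 and -0.09. Both comparisons share the ELA array, so Cdkn2a, Cdkn2b and Cdc45 in both lists are not independent of each other. All 3 calls also held against the ES array, where 6 of 40 genes were called with AZA and 7 of 40 with CHQ, beside 19.5% and 23.0% of the array. Between CHQ and AZA, on the same slide, none of 39 genes was called, beside 10.3% of 19145. The largest differences there at the main probes were Pola1 (+0.96) and Ccnd1 (-0.93). A second Pole probe was called lower with CHQ than with AZA (-1.72), while the main Pole probe gave +0.44.

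**Figure D3:**
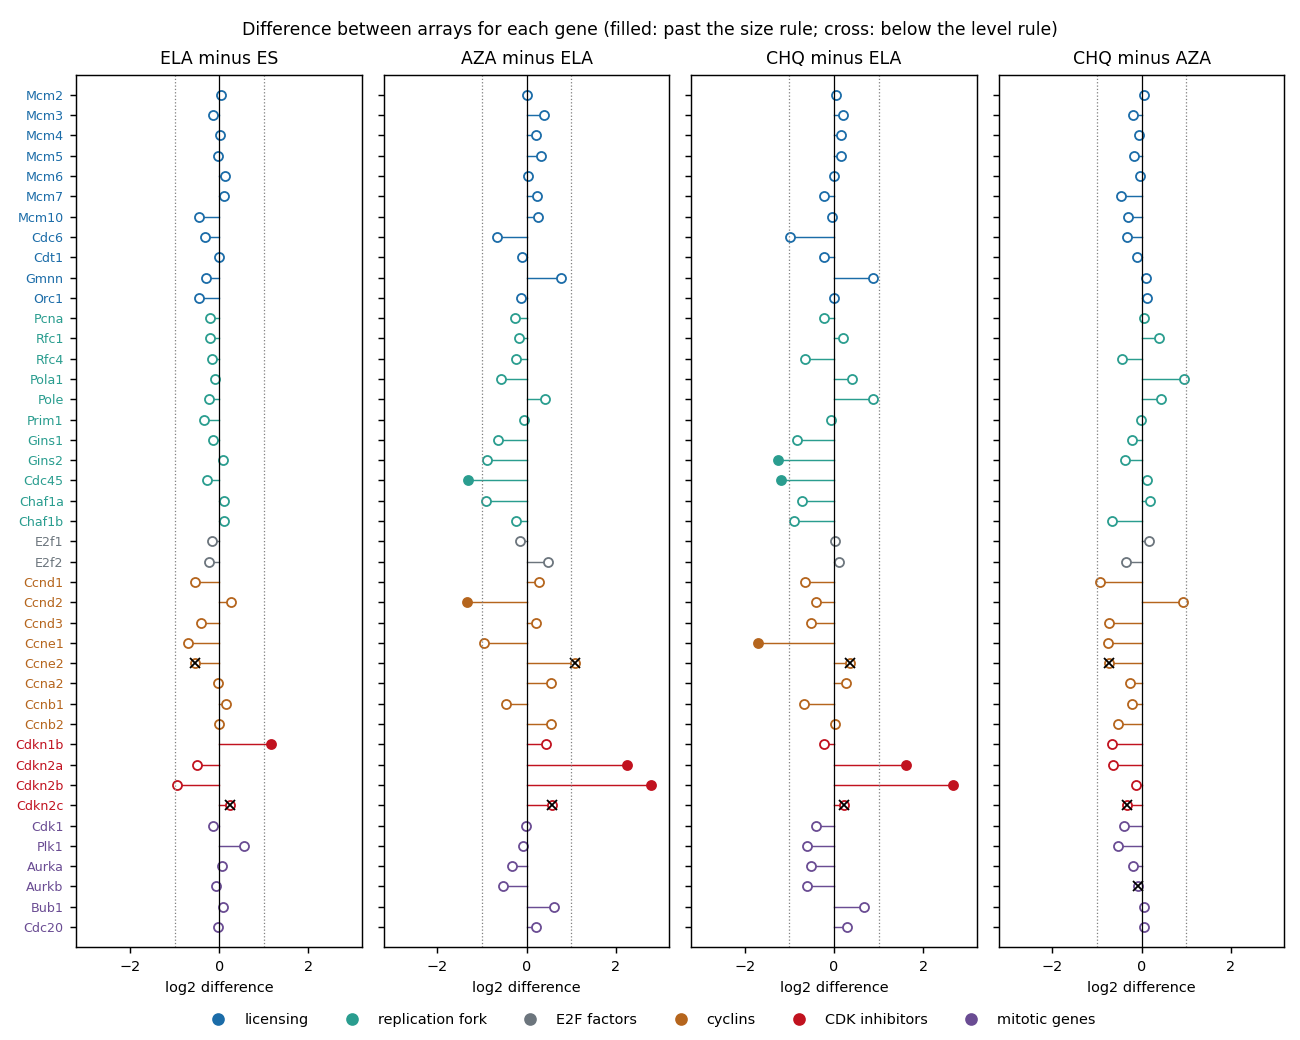
Log2 difference (horizontal axis) of each of the 42 genes, coloured by role, in 4 comparisons; filled points passed the size and level rules, crossed points lay below the level rule, and dotted lines mark differences of 1 in either direction. From the left panel to the right there are 1, 4, 5 and no filled points.

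Directions near 0 depended on how the arrays were scaled. Scaling to the 7 spike-in probes moved the median of all genes for ELA minus ES to -0.60 and that of the list to -0.77. With AZA against ELA these medians became -0.25 and -0.23, and with CHQ against ELA -0.39 and -0.57. Between CHQ and AZA they were -0.18 and -0.42. Scaling to the 75th percentile moved all genes to -0.20 with AZA and -0.26 with CHQ. The licensing median with AZA was +0.22 in the main values but -0.14 and -0.18 under these scalings, so it has a direction only relative to other genes. Relative to the median of all genes it stayed above 0, by 0.06 to 0.30.

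Where a gene had several probes, the one nearer the 5′ end of the transcript tended to give the lower difference of treated arrays from ELA. Of 10 genes of the list with a pair of probes at least 100 bases apart, the 5′ probe gave the lower difference in 8 with AZA (median -0.56) and in 8 with CHQ (median -0.47). For ELA minus ES it did so in 5 of 10 (median -0.02). The pairs of Cdkn1b, Cdkn2a and Cdkn2b are among the 8 with either treatment. Their 5′ probes were dim, at 7.03 to 7.69 on the control arrays, which limits the differences that they can show. Over 4543 genes of the array with such a pair, the 5′ probe was lower in 60% with AZA (median -0.15), 65.8% with CHQ (-0.24), 55.4% between ELA and ES (-0.03) and 57.8% between CHQ and AZA (-0.05). The contrast was plain in Rfc4, a small subunit of the clamp loader, whose 3′ probe differed from ELA by -0.23 with AZA and -0.66 with CHQ and whose 5′ probe by -1.51 and -1.97. Cdk1 went the other way with both treatments (5′ minus 3′ probe +0.48 with AZA and +0.42 with CHQ). Cdc6 did so with AZA (+0.50), while with CHQ its probes were nearly level (+0.04). The size of a difference thus depended on the probe, and the part that RNA integrity or labelling plays was not tested. Cdkn2a and Cdkn2b were called higher, and Ccne1 with CHQ lower, at either probe. Some genes were called lower than ELA at a second probe but not at the main one: Cdc6, Rfc4 and Ccne1 with AZA, and Cdc6, Rfc4, Pole, Chaf1b, Ccnb1 and Cdk1 with CHQ.

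**Figure D4:**
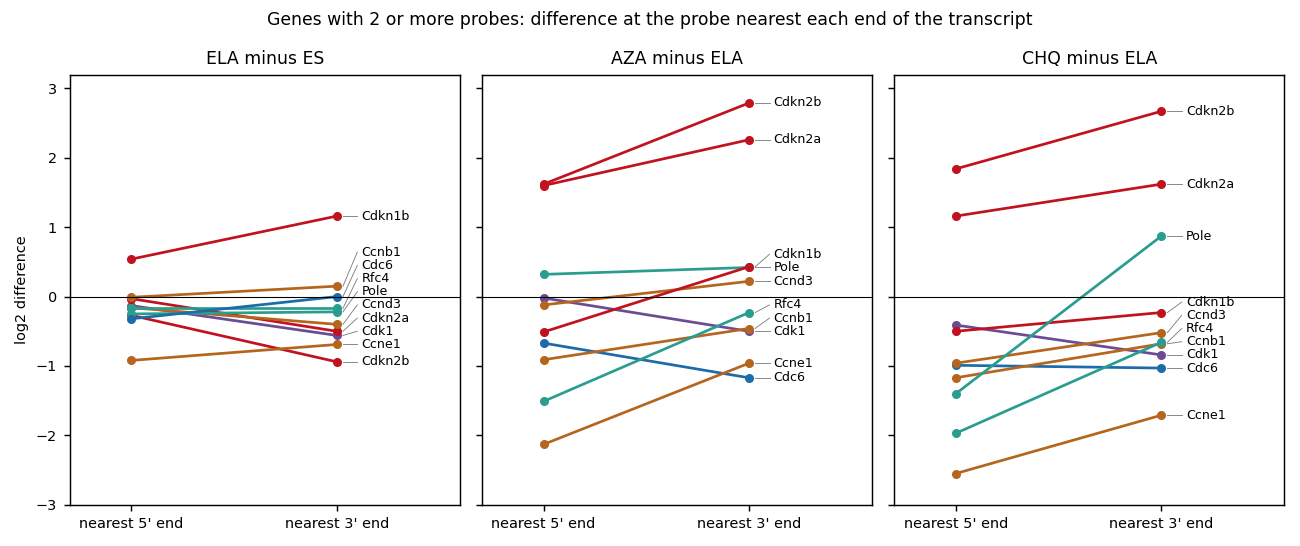
Log2 difference (vertical axis) at the probe nearest the 5′ end and at the probe nearest the 3′ end (horizontal axis) for 10 genes with probes at least 100 bases apart; each line is 1 gene, coloured by role. Lines for AZA minus ELA and CHQ minus ELA mostly slope upward to the 3′ end (8 of 10 in each), those for ELA minus ES do not (5 of 10).

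The rest of the pathway was covered by 97 further genes of replication, cyclin, CDK, retinoblastoma and mitotic function, all measured. Between ELA and ES 1 of 93 was called. Against ELA, 14 of 94 were called with AZA (14.9%, 7 higher and 7 lower) and 21 of 94 with CHQ (22.3%, 6 higher and 15 lower), and 3 of 94 were called between CHQ and AZA. Each share, both directions together, lay below that of the whole array given above, while the 15 of 94 lower with CHQ stand beside 11.9% of the array. These shares were not matched for signal level either. The largest differences from ELA were those of Rb1, Pttg1 and Rbl2. Rb1, the retinoblastoma gene, whose product ties up E2F factors, read 10.46 on ES, 10.23 on ELA, 12.45 on AZA and 13.13 on CHQ, from 10 spots per array. Its level was 2.23 above that on ELA with AZA, and 2.90 above it with CHQ. Rbl2, which encodes its relative p130, read 7.5, 7.13, 9.75 and 9.52, or 2.62 and 2.39 above ELA. Rbl1, which encodes the relative p107, was not called against ELA (+0.61 and +0.80). Mybl2, an activator of mitotic genes, read 16.29, 15.16, 17.32 and 16.86 and was the only call between ELA and ES (-1.13). Its differences from ELA were +2.17 (AZA) and +1.70 (CHQ).

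Among inhibitors outside the list, Cdkn1a, which encodes the p53 target p21Cip1, read 11.40 on ES, 11.42 on ELA, 13.24 on AZA and 12.92 on CHQ. It was called higher than ELA with AZA (+1.82, 3.53-fold) and with CHQ (+1.5, 2.82-fold) at its main probe, which has 10 spots per array. Its other probes differed in part: a probe at 7.34, 7.35, 8.15 and 8.66 was called with CHQ only, and a probe of another transcript form, at 7.92, 8.11, 9.05 and 8.15, with neither. Cdkn1c read 12.55, 12.46, 12.25 and 12.62, and Cdkn2d 11.69, 12.17, 11.95 and 11.72, neither past the threshold. Of all 7 CDK inhibitors of the Ink4 and Cip/Kip families, Cdkn1a, Cdkn2a and Cdkn2b were thus called higher than ELA with both treatments at their main probes, and only the last 2 at each of their probes. Cdkn1b, Cdkn1c, Cdkn2c and Cdkn2d were not called against ELA. Over the whole array, 14.2% of genes were called higher than ELA with AZA and 14.8% with CHQ. Pttg1, which encodes securin, the guard of sister chromatid cohesion, set CHQ apart from AZA. It read 15.50, 15.70, 15.82 and 13.03, with CHQ differing by -2.79 from AZA on the same slide and by -2.68 from ELA. At a second probe these differences were -1.95 and -2.57. Rnaseh2a, a subunit of the nuclease that removes RNA from DNA, was called lower with CHQ than with AZA (-1.26), and its 3 other probes gave -1.16, -0.43 and -0.40. E2f7, a repressor of E2F targets, was higher with CHQ than with AZA by 1.18 at its main probe, but a second probe gave -0.06 and was called lower than ELA with both treatments, so no direction is given for E2f7.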

How the data were processed

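The 4 arrays carried Cy3-labelled cRNA and were read with Agilent Feature Extraction 10.7.3.1, per the file headers, while the submitters' processing notes name version 9.1 and limma. The deposited scanner files give each spot's mean intensity, local background intensity and flags, without normalization between arrays, with probes placed on build mm9. The authors also deposited a table of log2 values, background-corrected and quantile-normalized, which was used as an alternative. Its columns had medians of 6.21 to 6.24 and correlated at 0.9991 to 0.9994 with normexp values computed without an offset.

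Here, spot means were corrected with normexp (offset 50) and quantile-normalized on the log2 scale (limma 3.58.1, R 4.3.3). Control spots and outlier-flagged spots were then left out and spots of a probe were averaged. Of 55681 probes, 559 had no usable spot on some array. A gene was named by the GeneName column and given by its probe of highest mean signal. The comparisons were ELA with ES, AZA and CHQ each with ELA, and CHQ with AZA. A single array per group allows no test and bounds the precision. The members and lists were chosen with earlier results of these data known. By the rule for named genes, all 4 values are given for each called member and for the members with the strongest and weakest probe of each role, and of the 97 other pathway genes the 3 largest calls per comparison and the remaining CDK inhibitors are named. Promoter windows came from RefSeq (GRCm38.p6). An array with knockdown of another gene is not analysed here. Alternatives are given at the end.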

Additional observations from a re-analysis of the deposited data

Results flagged for a closer look

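For 5 genes the main probe's difference from ELA had opposite signs with AZA and with CHQ, each larger than the spread between replicate spots. The difference between the treatments was not tested, since each was 1 array. Pola1 was -0.57 with AZA and +0.39 with CHQ, so that CHQ minus AZA was +0.96. Ccnd1 was +0.28 and -0.65, a CHQ minus AZA difference of -0.93. Ccnd3 was +0.22 and -0.52, a difference of -0.74, but its second probe was -0.12 and -0.96, and under spike-in scaling the AZA value was -0.08. Cdkn1b was +0.43 and -0.23, a difference of -0.66, but its dim second probe was -0.51 and -0.50. Mcm7 was +0.24 and -0.22, a difference of -0.46, but with AZA it was -0.25 under 75th percentile and -0.29 under spike-in scaling, the same sign as with CHQ.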

How the results depend on the processing

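For genes of the list in the 4 comparisons, each difference and median was recomputed in 7 other ways and each count in 3 more. These alternatives did not cover the further pathway genes, the markers, the ranges, single second probes or the comparisons of AZA or CHQ with ES. Counts of called genes of the list for ELA minus ES (1 in the main values) were 2 with normexp without an offset, 2 with 75th percentile scaling, 8 (all lower) with spike-in scaling, 3 with the authors' value table, 0 with the mean over probes and 3 at a 1.5-fold threshold. Shares of all genes called were 10.9%, 11.5%, 20.8%, 11.1%, 9.28% and 23.2% in the same order, so that under spike-in scaling the list's share came close to that of the array. The authors' table added Gmnn, at the spot that carried an outlier flag, and Cdkn2b (-1.05). Cdkn2b, at -0.94 in the main values, was also called lower without an offset (-1.03), under 75th percentile scaling (-1.13) and under spike-in scaling (-1.46). For AZA minus ELA the count of 4 became 11 at the 1.5-fold threshold, with 46.6% of all genes. For CHQ minus ELA the count of 5 became 9 with 75th percentile scaling, 14 with spike-in scaling, 8 with the mean over probes and 17 at the 1.5-fold threshold, with 32.7%, 33.5%, 24.8% and 49.2% of all genes, and under spike-in scaling the list again came close to the array. For CHQ minus AZA the count of 0 became 1 with no offset, 1 with 75th percentile scaling, 1 with spike-in scaling, 2 with the authors' table and 8 at the 1.5-fold threshold, where all genes gave 11.5%, 11.5%, 10.6%, 11.9% and 25.2%. The median over the list moved under spike-in scaling to -0.77 (ELA against ES), -0.23 (AZA against ELA), -0.57 (CHQ against ELA) and -0.42 (CHQ against AZA), and with CHQ against ELA under 75th percentile scaling to -0.46. The causes were not tested. The calls against ELA of Cdkn2a, Cdkn2b and Cdc45 with both treatments, Ccnd2 with AZA, and Ccne1 and Gins2 with CHQ were made in all 8 ways. Cdkn1b for ELA minus ES was called in 6 of 8, with 0.54 under spike-in scaling and 0.85 with the mean over probes. In the 4 comparisons, no difference of the list that was called in the main values changed sign. Gmnn, which was not called there, did: in the authors' table, which holds its flagged spot, ELA differed from ES by +2.85, and AZA and CHQ differed from ELA by -3.53 and -4.18. With CHQ it was also called higher without an offset (+1.09) and with cyclic loess (+1.00). Of 1176 recomputed differences of single genes, 947 moved by less than 0.21, the spread of a difference between replicate spots.

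No paired analysis was possible because each group had 1 array, and leaving an array out would leave a group empty. A difference between slides cannot be told apart from a treatment, and signal over background limits Ccne2, Cdkn2c and the dim second probes.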
